A study of Rattus norvegicus with 4 samples.

Results

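Solute carriers are membrane proteins that move amino acids, sugars, ions, metals, nucleotides and many other small molecules across the plasma membrane or into organelles. In the lactating gland they feed the alveolar cells with amino acids and glucose for milk, carry ions and zinc into it, load the Golgi with nucleotide sugars for lactose and glycoproteins, and exchange metabolites between mitochondria and cytosol. After weaning most of the secretory epithelium is lost in involution, the regression that follows removal of the litter, and adipose tissue fills the gland again.

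The genes described were those whose annotated symbol starts with Slc followed by a digit, with 4 Slc genes left out by the selection rule. This gave 216 genes on 268 array features. The whole series had 9653 genes on 12750 features with 1 symbol, of 20500 features in all. The symbols Slc4a1ap and Slc7a6os belong to neighbours or partners of a carrier rather than to a carrier, and they were kept because the rule goes by symbol. Substrate groups were set by Slc family number, with a few genes placed singly, and not by the known substrate of each gene. By this grouping 41 genes fell under amino acids and peptides, 14 under glucose and other sugars and 13 under nucleotide sugars. Ions and metals held 52, the mitochondrial Slc25 family 22 and other substrates 74. Slc7a6os is counted with the amino acid carriers and Slc4a1ap with the ion carriers. Of the 216 genes, 128 had an intensity above a filter of 214.9 units on at least 1 array, and 119 of those had a value on all 4 arrays. Of these 119, 99 exceeded the filter on all 4 arrays, 11 on 3 arrays, 4 on 2 arrays and 5 on 1 array. A further 9 were blank on at least 1 array, and 88 stayed below the filter, so that nothing can be said of them beyond their being dim.

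Total RNA of the mammary gland of Lewis rats was hybridised to 4 arrays, 1 array for each group of 5 rats. The first group, parous+MNU, were rats with parturition at 87 days of age, 21 days of nursing and litters taken away at 108 days. They had 28 days of involution and then received N-methyl-N-nitrosourea (MNU) as 1 intraperitoneal dose of 50 mg/kg. MNU is a methylating agent used to raise mammary cancers in this species. The AMV+MNU group were age-matched virgin (AMV) rats given the same dose. Both groups were killed 3 weeks after the dose, at 157 days of age. The parous group had the same reproductive history, had 28 days of involution, got no carcinogen and was killed at 136 days, as were the AMV rats without treatment. MNU therefore cannot be told apart from 3 weeks of age, nor, in parous rats, from longer time after litter removal. Whether the RNA of the 5 rats was pooled is not given in the sources used here.

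Each group had 1 array, so no group has a replicate and a difference between 2 arrays has no error of its own. The only test possible was an additive model (limma) of parity and MNU over the 4 arrays. Its error is the disagreement between the pairs of arrays, taken mostly from all genes together. A gene's own pairs give 1 degree of freedom, against 11.3 borrowed from all genes. The standard errors and intervals are therefore much alike between genes and say little of how a gene's own pairs agree. The p-values of the model reflect how far these 4 arrays disagree and no animal-to-animal error. Its median standard error was 0.112 on the log2 scale. Array medians of the deposited intensities ranged from 179 to 238 units, and the parous+MNU and AMV+MNU arrays held 795 and 666 blanks, against 421 and 390 on the parous and AMV arrays. Fewer cells of a type and less RNA per cell cannot be told apart in such bulk samples.

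Among the transporters 1 gene passed the test for parity and 1 for MNU. Slc14a1, which encodes a urea transporter of the plasma membrane, was higher in parous glands. Slc25a10, which encodes the mitochondrial dicarboxylate carrier that exchanges malate and succinate for phosphate, was higher in MNU glands. That is 1 of 119 members (0.84%) for parity, against 69 of 5587 genes (1.24%) over all genes tested, and 1 of 119 (0.84%) for MNU, against 24 of 5587 (0.43%). Without adjustment, 8 of 119 members (6.72%) had a p under 0.05 for each factor, against 554 (9.92%) of all genes for parity and 714 (12.8%) for MNU. By the mean of both pairs, 112 of 119 members (94.1%) lay within 1.2-fold of no difference for parity and 112 for MNU, against 90.7% and 88.7% of all genes.

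In the single pairs of arrays, no member differed by 2-fold or more. The counts were 0 of 126 for parous over AMV, 0 of 119 for parous+MNU over AMV+MNU, 0 of 122 for AMV+MNU over AMV and 0 of 123 for parous+MNU over parous. Over all genes the shares at 2-fold were 0.45%, 0.422%, 0.395% and 0.0863% in that order. At 1.5-fold, a log2 difference of 0.58, no member of 126 stood out between the parous and AMV arrays, against 1.65% of all genes. Between the parous+MNU and AMV+MNU arrays 3 of 119 members did (2.52%, against 2.29% of all genes), Slc14a1 and Slc39a4 being higher and Slc25a20 lower. Between AMV+MNU and AMV there were 2 of 122 (1.64%, against 2.28%), with Slc25a10 higher and Slc34a3 lower. Between parous+MNU and parous there were also 2, of 123 (1.63%, against 0.984%), with Slc25a10 higher and Slc22a23 lower. These shares lie near those of all genes.

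**Figure D1:**
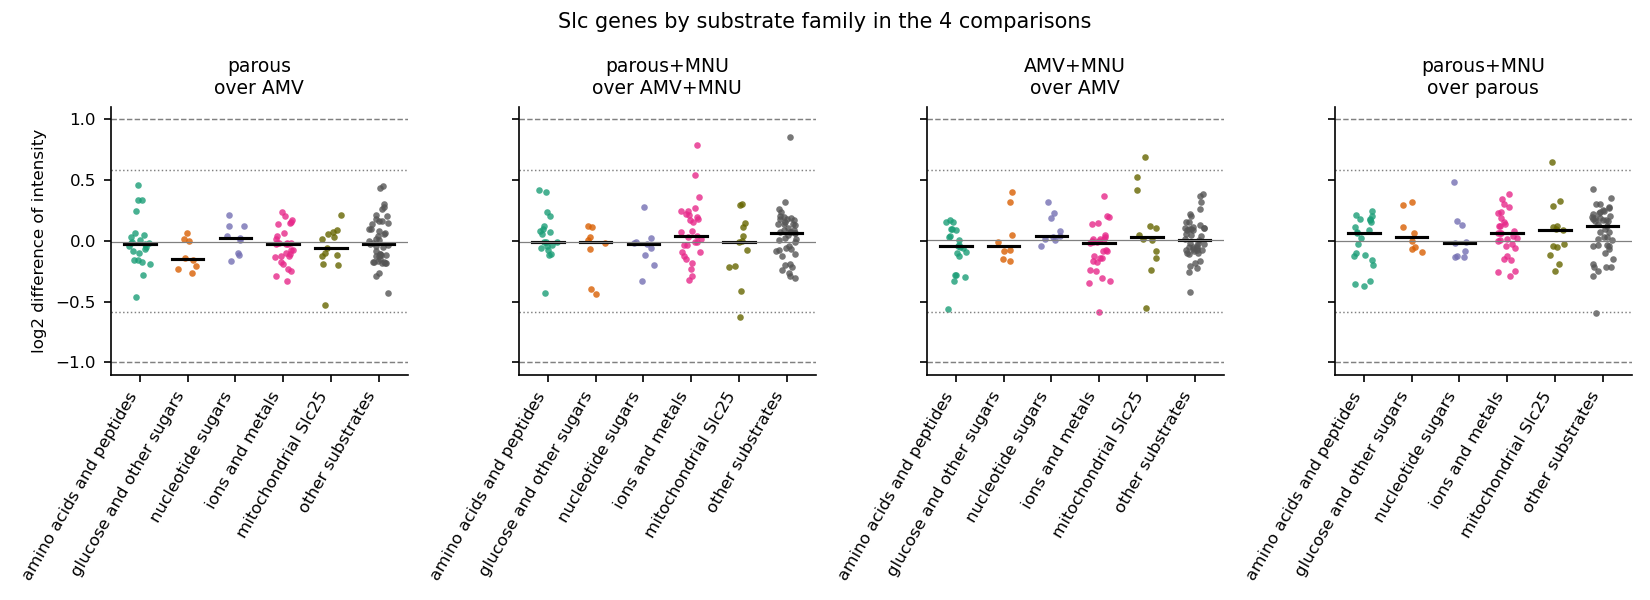
Log2 differences of the solute carrier genes in the 4 pairs of arrays, grouped by substrate family. Each dot is a gene, the black bar is the family median, the grey line is the median of all genes, and dotted and dashed lines mark 1.5-fold and 2-fold; no dot passes the dashed lines, and every family median lies between -0.15 and 0.13.

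The plot of log2 differences by family shows the families lying close to the median of all genes. The median over all members was -0.03 for parous over AMV, 0.02 for parous+MNU over AMV+MNU, -0.00 for AMV+MNU over AMV and 0.07 for parous+MNU over parous. Over all genes these medians were -0.01, -0.01, 0.00 and -0.00. The spread of the members, as a robust SD, was 0.154, 0.174, 0.150 and 0.191 in the same 4 pairs, against 0.155, 0.199, 0.190 and 0.194 over all genes. The lowest family median was that of the sugar carriers in parous over AMV, at -0.15, with 2 members above 0 and 5 below. All genes had 2814 above 0 and 3159 below in that pair. The highest family median was that of the other substrates in parous+MNU over parous, at 0.13, with 29 above 0 and 14 below. All genes had 2853 above 0 and 2918 below there.

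The 2 parity pairs share no array, and neither do the 2 MNU pairs. Of the 119 members, 61 (51.3%) differed in the same direction in both parity pairs, 27 being higher and 34 lower in parous glands, against 55.4% of all genes. For MNU it was 60 members (50.4%), 36 higher and 24 lower, against 58.8% of all genes. Nearly as many transporters had opposite signs in the pairs as had the same.

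**Figure D2:**
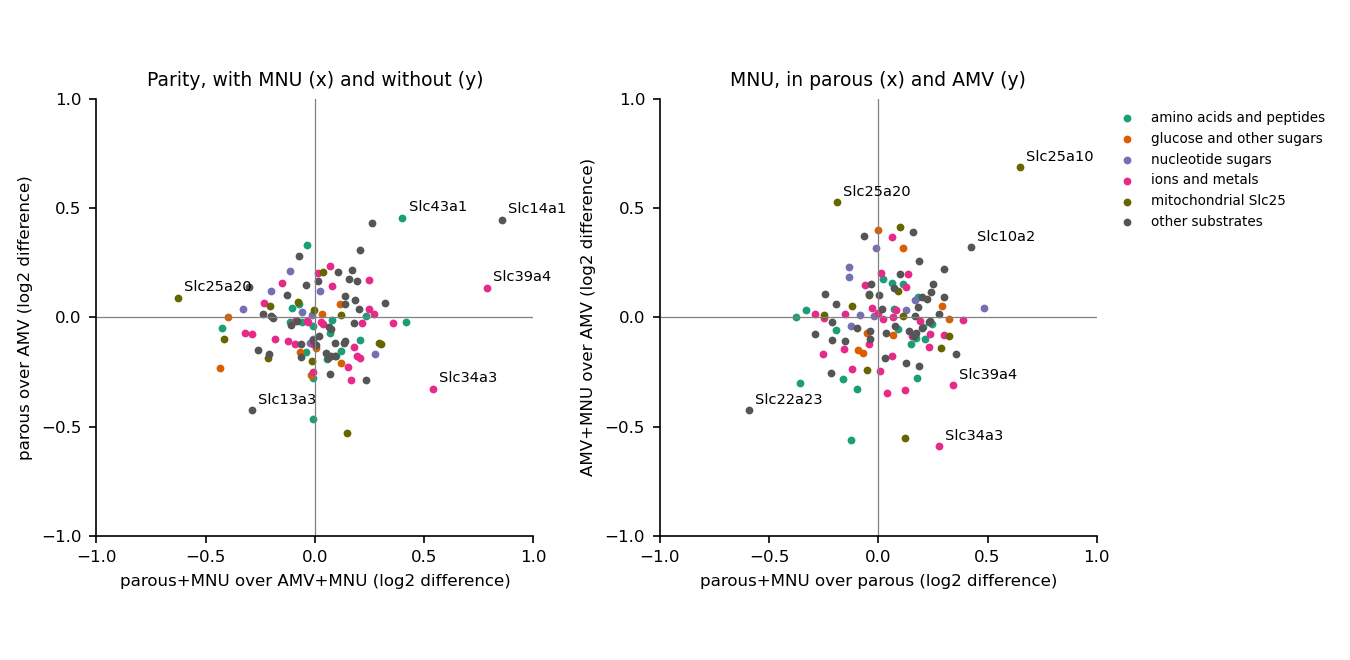
Log2 difference of each solute carrier gene in 1 pair of arrays against its difference in the other pair, for parity (parous+MNU over AMV+MNU on the x axis, parous over AMV on the y axis) and for MNU (parous+MNU over parous on the x axis, AMV+MNU over AMV on the y axis). Dots are coloured by substrate family; Slc14a1 for parity and Slc25a10 for MNU lie at the upper right, and Slc34a3 lies at the lower right in both panels, with opposite signs in the pairs.

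The plot of 1 pair against the other shows which genes had the same sign in both pairs. Slc14a1 and Slc43a1 for parity, and Slc25a10 and Slc22a23 for MNU, lie away from 0 in both pairs on the same side. Slc34a3 for both factors, and Slc39a4 for MNU, lie on opposite sides in the pairs. Slc25a20 and Slc25a30 also had opposite signs in the pairs of each factor. These 8 genes were chosen for display after their values were seen.

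Slc14a1 had 1277 units on the parous array, against 937 on the AMV array. After MNU it had 1454 units on the parous+MNU array, against 803 on the AMV+MNU array. Both parous arrays thus lay above both AMV arrays. The log2 difference was 0.45 without MNU and 0.86 with it, and the limma mean was 0.65 ± 0.12 (SE; 1.57-fold; adjusted p = 0.0214). Its 95% interval ran from 0.38 to 0.92. A second feature for Slc14a1 was dim, with 207 units on the parous and 209 on the AMV array, and 244 on the parous+MNU and 209 on the AMV+MNU array. That feature gave a parity mean of 0.11 (adjusted p = 0.844), so the call rests on the brighter feature, and with the mean of both features it was 0.38 (adjusted p = 0.403). The call was also lost without the filter (adjusted p = 0.756) and on the intensities as deposited (0.41; adjusted p = 0.475). For MNU the brighter feature gave -0.02 (adjusted p = 0.968).

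Slc14a1 is known from red cells and from the endothelium of the descending vasa recta in the kidney. Of 9 erythrocyte markers 3 were on the array, 2 (Alas2 and Ahsp) passed the filter, and their summed level was 1759 units on parous+MNU, against 1412 on AMV+MNU, and 1157 on parous, against 1252 on AMV. Of 6 endothelial markers 5 were on the array and 4 passed the filter. The 2 of them with all 4 values (Pecam1 and Cdh5) summed to 3521 units on parous+MNU, against 2942 on AMV+MNU, and to 3246 on parous, against 3434 on AMV. Vwf and Kdr were blank on parous+MNU. Neither Alas2, Ahsp, Pecam1 nor Cdh5 passed the test for parity. Slc4a1, the anion exchanger of red cells, stayed below the filter. The adipocyte markers had parity means below 0 in 3 of 3 genes, with a median of -0.11, and the skeletal muscle markers in 4 of 4, 2 of which fell (Actn3 and Myl11). The muscle sum was 1672 units on parous+MNU, against 2174 on AMV+MNU, and 1418 on parous, against 2013 on AMV. Of 7 luminal epithelial markers 5 had parity means above 0 and 2 below, and of these Muc1 rose and Krt7 fell. Of the 2 plasma cell markers with values Jchain rose (adjusted p = 3.84e-06), with log2 differences of 1.84 with MNU and 2.16 without, and Sdc1 had a mean of -0.38 (adjusted p = 0.237). The part of any cell type in the Slc14a1 result was not tested.

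Slc25a10 had 521 units on the AMV+MNU array, against 323 on the AMV array. In parous glands it had 519 units on the parous+MNU array, against 331 on the parous array. Both MNU arrays lay above both untreated arrays, and glands of either reproductive history had nearly the same level. The log2 difference was 0.69 in AMV and 0.65 in parous glands. The limma mean was 0.67 ± 0.11 (SE; 1.59-fold; adjusted p = 0.0277), with a 95% interval from 0.43 to 0.91. For parity the mean was 0.01, with an interval from -0.22 to 0.25. The gene had 1 feature on the array. The call was lost without the floor (adjusted p = 0.0506), without the filter (0.286) and on the intensities as deposited (0.42; adjusted p = 0.289), where the median of all genes was -0.24. The carrier is abundant in white adipose tissue, where it supplies malate in the course of fatty acid synthesis. Of 10 adipocyte markers 7 were on the array and 4 passed the filter. The 3 with all 4 values summed to 2857 units on AMV+MNU, against 2504 on AMV, and to 2100 on parous+MNU, against 1943 on parous. Their median MNU difference was 0.14, none passed the test, and their part in the Slc25a10 result was not tested.

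The promoters of the 2 genes that passed the test are printed here because the results turn on them. They are from RefSeq for the rat assembly GRCr8, from 250 bases before to 50 bases after an annotated start, 5′ to 3′ on the strand of the gene. The first entry listed for each gene was taken, and any other start of these genes was not examined by itself. Capitals mark a TATA box (TATAAA), a GC box (GGGCGG) or a CCAAT box (CCAAT), each searched on both strands. Slc14a1 lies on the minus strand at chr18:73864594-73864893 and Slc25a10 on the plus strand at chr10:106264146-106264445.
Slc14a1: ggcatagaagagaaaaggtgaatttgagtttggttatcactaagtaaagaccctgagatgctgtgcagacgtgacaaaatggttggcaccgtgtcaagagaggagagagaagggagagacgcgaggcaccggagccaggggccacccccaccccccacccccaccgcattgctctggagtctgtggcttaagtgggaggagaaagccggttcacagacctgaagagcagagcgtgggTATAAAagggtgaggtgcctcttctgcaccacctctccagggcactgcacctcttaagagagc
Slc25a10: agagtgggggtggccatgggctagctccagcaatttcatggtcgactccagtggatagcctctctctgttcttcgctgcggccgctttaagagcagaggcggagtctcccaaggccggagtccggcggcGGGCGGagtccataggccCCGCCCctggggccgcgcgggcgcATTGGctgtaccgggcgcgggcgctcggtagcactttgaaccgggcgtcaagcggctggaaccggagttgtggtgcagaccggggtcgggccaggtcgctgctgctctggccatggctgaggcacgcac
In the Slc14a1 window the search found a TATA box at -13 and no GC or CCAAT box. In the Slc25a10 window it found GC boxes at -121 and, on the other strand, at -103, and a CCAAT box on the other strand at -79. Of 33469 rat promoter entries of 300 bases, 33.1% held a GC box, 37.5% a CCAAT box and 14.2% a TATA box. Among the 186 solute carrier genes with a promoter entry, a single entry for each gene, the shares were 55.9%, 37.6% and 6.45%. The 33469 entries were not reduced to a single entry per gene, so these shares are not counted alike. These are matches of letters and describe no binding.

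**Figure D3:**
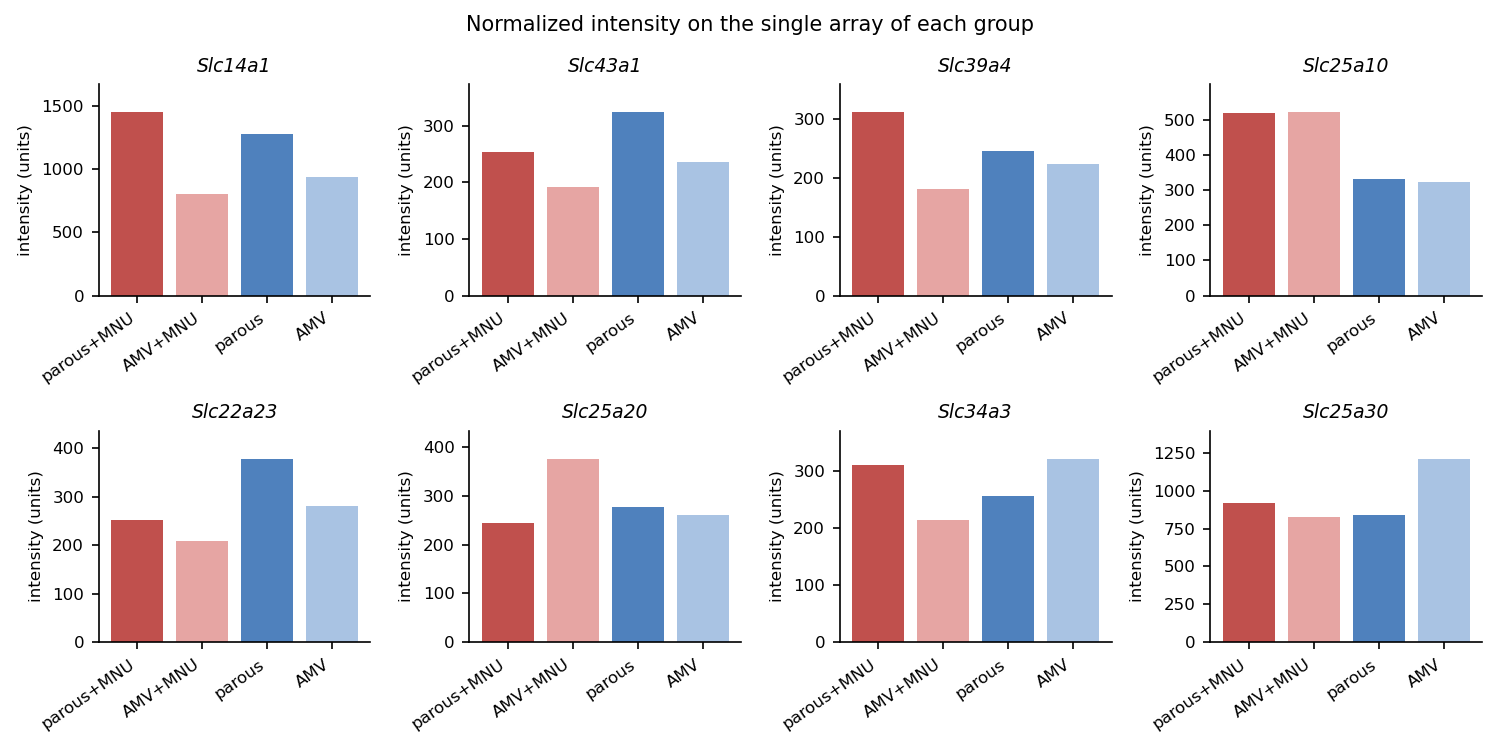
Normalized intensity (units, linear axis from 0) of 8 solute carrier genes on the parous+MNU, AMV+MNU, parous and AMV arrays, 1 bar for each array. Slc14a1 is higher on both parous arrays and Slc25a10 on both MNU arrays; in Slc25a20 and Slc25a30 a single array is above the others, and Slc39a4 and Slc34a3 spread over all 4 arrays.

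Among the amino acid and peptide carriers, 19 of 41 genes were tested and none passed for either factor. For parity 6 lay above 0 and 13 below, with a median of -0.02, and for MNU 11 lay above and 8 below, with a median of 0.02. Over all 5587 genes tested, 2596 lay above 0 and 2991 below for parity, and 2917 above and 2670 below for MNU. These all-gene counts are the background for the family counts here and below. Slc43a1, a sodium-independent carrier of branched-chain amino acids, came nearest. It had 253 units on the parous+MNU array, against 192 on AMV+MNU, and 325 on the parous array, against 237 on AMV. It was higher in the parous gland of each pair, and also lower in the MNU gland of each pair. The parity mean was 0.43 ± 0.11 (SE; adjusted p = 0.102) and the MNU mean -0.33 ± 0.11 (SE; adjusted p = 0.234).

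The large neutral amino acid exchanger is a dimer of the heavy chain Slc3a2 with a light chain such as Slc7a5 or Slc7a8. Slc3a2 had 1050 units on parous+MNU, against 892 on AMV+MNU, and 1125 on parous, against 1121 on AMV. Slc7a5 was near the filter, with 214 units on parous+MNU, against 230 on AMV+MNU, and 211 on parous, against 204 on AMV. Its 95% interval for parity ran from -0.27 to 0.21. Slc7a8 had 1801 units on the parous array, against 2487 on AMV, but 2034 on parous+MNU, against 2049 on AMV+MNU. A log2 difference of -0.47 in the first pair was thus met by -0.01 in the other.

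Slc38a2, the sodium-coupled carrier of small neutral amino acids that responds to amino acid starvation, was bright and even. It had 3478 units on parous+MNU, against 3315 on AMV+MNU, and 3272 on parous, against 3436 on AMV. Its parity interval ran from -0.24 to 0.24 on the log2 scale, the precision 4 arrays give. The arginine and lysine carrier Slc7a1 lay between 316 and 362 units. Slc6a6, which takes up taurine, had 965 units on AMV+MNU, against 1425 on AMV, and 1287 on parous+MNU, against 1403 on parous. Its MNU mean was -0.34 ± 0.13 (SE; adjusted p = 0.278). The glutamine carrier Slc1a5 was blank on the AMV+MNU and parous arrays and had 2326 units on parous+MNU and 1681 on AMV, which differ in both factors, so neither could be examined. Slc15a2, Slc38a10, Slc38a5 and Slc7a6 were each blank on 1 MNU array.

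Of the 14 carriers of glucose and other sugars, 8 were tested and none passed. For parity 2 lay above 0 and 6 below, with a median of -0.09, and for MNU 4 lay above and 4 below, with a median of 0.08. Slc2a1, the basal glucose transporter that also serves the lactating gland, was even. It had 510 units on parous+MNU, against 498 on AMV+MNU, and 529 on parous, against 524 on AMV. Its parity mean was 0.02 (95% interval from -0.22 to 0.26) and its MNU mean -0.06 (from -0.30 to 0.17). Slc2a8, an intracellular hexose transporter, ranged from 541 to 625 units.

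Slc37a4, which carries glucose-6-phosphate into the endoplasmic reticulum, had the most negative parity mean of the sugar carriers. It had 955 units on parous+MNU, against 1293 on AMV+MNU, and 883 on parous, against 1036 on AMV. It was lower in the parous gland of each pair, with a mean of -0.33 ± 0.11 (SE; adjusted p = 0.261). Slc2a5, the fructose transporter, was at the floor of 176.9 units on 3 arrays and had 233 units on AMV+MNU, at least 1.32-fold higher than on AMV. It was kept only through that array, where it was high, so the filter itself favoured this difference. The gene still enters the counts and medians of the sugar carriers. Slc5a1 and Slc2a3 stayed below the filter.

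The nucleotide sugar carriers bring activated sugars into the Golgi and endoplasmic reticulum, where glycosyltransferases use them, and 9 of 13 were tested. None passed, 3 lay above 0 and 6 below for parity with a median of -0.02, and 6 above and 3 below for MNU with a median of 0.05. Slc35a1, which carries CMP-sialic acid, had 259 units on parous+MNU, against 325 on AMV+MNU, and 285 on parous, against 277 on AMV. Slc35c2 had the highest MNU mean of the family. It had 578 units on parous+MNU, against 412 on parous, and 477 on AMV+MNU, against 464 on AMV. The mean was 0.26 ± 0.13 (SE; adjusted p = 0.417), and it came from the parous pair, with log2 differences of 0.49 there and 0.04 in AMV glands. Slc35b2, the carrier of the sulfate donor PAPS, ranged from 1071 to 1162 units.

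Of the 52 carriers of ions and metals, 29 were tested and none passed. For parity 16 lay above 0 and 13 below, with a median of 0.00, and for MNU 17 above and 12 below, with a median of 0.01. In parous over AMV alone 9 were above 0 and 20 below, where all genes had 2814 above and 3159 below. In parous+MNU over AMV+MNU 17 were above and 12 below, where all genes had 2677 above and 2997 below. Slc12a2, the sodium-potassium-chloride cotransporter of secretory epithelia, had 835 units on parous+MNU, against 814 on AMV+MNU, and 797 on parous, against 813 on AMV. The phosphate cotransporter Slc34a2 had 995 units on parous+MNU, against 856 on AMV+MNU, and 893 on parous, against 908 on AMV. Their parity intervals ran from -0.24 to 0.24 and from -0.15 to 0.35.

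Slc39a4, a zinc importer best known from the intestine, stood out in the MNU glands. It had 312 units on parous+MNU, against 181 on AMV+MNU, and 246 on parous, against 224 on AMV. The AMV+MNU value lay just above the floor. A second feature of Slc39a4, with values on 3 arrays, stayed below the filter, so these values rest on 1 feature. The log2 difference for parity was 0.79 with MNU and 0.14 without, and the mean was 0.46 ± 0.14 (SE; adjusted p = 0.205). Slc34a3, the sodium-phosphate cotransporter best known from the kidney, had opposite signs in the pairs. It had 311 units on parous+MNU, against 214 on AMV+MNU, but 257 on parous, against 322 on AMV. The log2 differences were 0.54 and -0.33, and the limma mean of 0.11 ± 0.16 (SE) describes neither pair.

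Other transporters of metals and bicarbonate did not pass the test. The iron and manganese importer Slc11a2 had 303 units on parous+MNU, against 278 on parous, and 330 on AMV+MNU, against 300 on AMV. Slc30a9 had 1098 units on parous+MNU, against 1195 on parous, and 1105 on AMV+MNU, against 1302 on AMV. The sodium-bicarbonate cotransporter Slc4a4 had 249 units on AMV+MNU, with 319, 311 and 317 on parous+MNU, parous and AMV. The anion exchanger Slc4a2 lay between 14069 and 14441 units. The quantile step holds the top of every array to nearly 1 value, so evenness there is partly set by it. Slc4a1, Slc5a5, Slc39a8 and Slc40a1 stayed below the filter.

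Of the 22 genes of the mitochondrial Slc25 family 12 were tested, and Slc25a10 was the member that passed. For parity 5 lay above 0 and 7 below, with a median of -0.04, and for MNU 8 above and 4 below, with a median of 0.07. Slc25a3, which imports phosphate for ATP synthesis, had 1237 units on AMV+MNU, against 928 on AMV, and 928 on parous+MNU, against 866 on parous. Its MNU mean was 0.26 ± 0.12 (SE; adjusted p = 0.390), and the AMV pair contributed most of it. The ADP/ATP carrier Slc25a4 had 841 units on parous+MNU, against 976 on AMV+MNU, and 790 on parous, against 899 on AMV. It was lower in the parous gland of each pair, with a mean of -0.20 (adjusted p = 0.614). Its relative Slc25a5 was blank on AMV+MNU and had 3138, 3201 and 3330 units on parous+MNU, parous and AMV.

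Slc25a20, which brings acylcarnitines into mitochondria for fatty acid oxidation, was high on 1 array. It had 376 units on AMV+MNU, with 244 on parous+MNU, 278 on parous and 261 on AMV. The log2 difference was -0.63 for parous+MNU over AMV+MNU and 0.09 for parous over AMV, and the parity mean was -0.27 ± 0.15 (SE; adjusted p = 0.617). Slc25a30 was also set apart by 1 array, with 1212 units on AMV, and 915, 828 and 841 on parous+MNU, AMV+MNU and parous. Slc25a17, a peroxisomal carrier in spite of its number, ranged from 1058 to 1223 units. Slc25a1, the citrate carrier, stayed below the filter.

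The 74 carriers of other substrates gave 42 tested genes, with Slc14a1 the member that passed. For parity 20 lay above 0 and 22 below, with a median of -0.01, and for MNU 27 above and 15 below, with a median of 0.05. Slc22a23, an orphan of the organic ion family, had the most negative MNU mean of all members. It had 209 units on AMV+MNU, against 281 on AMV, and 251 on parous+MNU, against 378 on parous. It was lower in the MNU gland of each pair, with a mean of -0.51 ± 0.11 (SE; adjusted p = 0.0817). A second feature of the gene gave -0.19, with log2 differences of -0.03 in AMV and -0.35 in parous glands. Another feature, below the filter, gave 0.002 in AMV and 0.06 in parous glands without the floor. The lower MNU value in each pair thus rests mainly on the brightest feature. For parity Slc22a23 had a mean of 0.35 ± 0.11 (SE; adjusted p = 0.231).

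Slc10a2, the sodium-bile acid cotransporter of the ileum, had 337 units on AMV+MNU, against 270 on AMV, and 382 on parous+MNU, against 285 on parous. Its MNU mean was 0.37 ± 0.11 (SE; adjusted p = 0.190). Slc13a3, a sodium-coupled importer of dicarboxylates at the plasma membrane, had 382 units on parous+MNU, against 467 on AMV+MNU, and 328 on parous, against 440 on AMV. Its parity mean was -0.36 ± 0.11 (SE; adjusted p = 0.205). Both genes kept their direction in each pair and both missed the threshold.

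The fatty acid transport protein Slc27a1 had 470 units on parous+MNU, against 407 on AMV+MNU, and 438 on parous, against 354 on AMV, with a parity mean of 0.26 (adjusted p = 0.445). The lactate carriers Slc16a1 and Slc16a3 ranged from 268 to 325 and from 209 to 235 units. Slc29a1, an equilibrative nucleoside transporter, ranged from 1266 to 1406 units. Slc48a1, which moves heme, had 1596 units on AMV+MNU, against 1333 on AMV, and 1482 on parous+MNU, against 1303 on parous, with an MNU mean of 0.22 (adjusted p = 0.429).

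**Figure D4:**
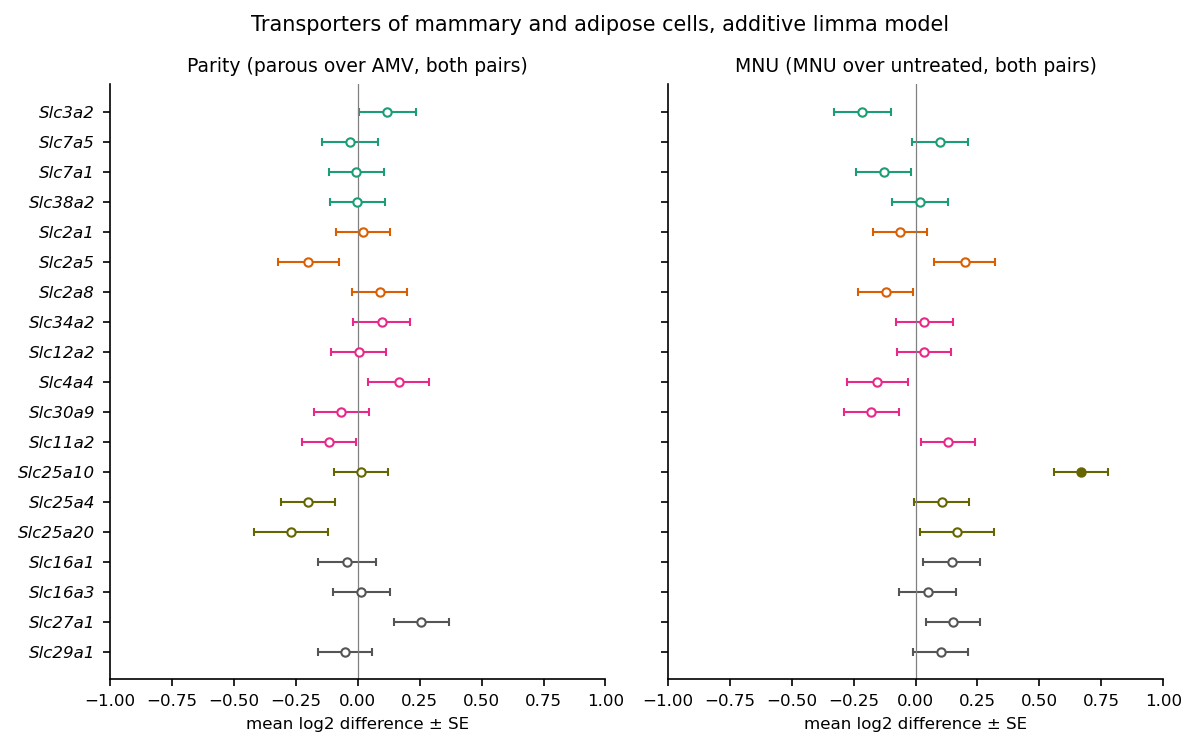
Limma mean log2 difference with its standard error for the 19 tested genes of a fixed list of transporters with a known part in mammary gland or adipose tissue, for parity (parous over AMV) and for MNU (MNU over untreated), over 4 arrays. Filled dots mark an adjusted p under 0.05; Slc25a10 for MNU, at 0.67, is the single filled dot.

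The plot of 19 transporters with a known part in mammary gland or adipose tissue gives their means with errors. They are the tested genes of a fixed list. Of the others on it, 7 had no feature under their symbol, 7 stayed below the filter and 2 were blank on at least 1 array. Of the 19, none passed for parity, and Slc25a10 passed for MNU. Over all genes tested, 1.24% passed for parity and 0.43% for MNU. The list was drawn up with earlier results of these data known, so its counts are no independent result.

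Genes with several features on the array show how far 1 feature can be trusted. Among members with more than 1 feature above the filter, the features had the same sign in 13 of 20 (65%) for parous over AMV, 11 of 18 (61.1%) for parous+MNU over AMV+MNU, 11 of 18 for AMV+MNU over AMV and 12 of 19 (63.2%) for parous+MNU over parous. Over all genes the shares were 54.1%, 54.1%, 50.4% and 47.2%.

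The other transport genes, meaning aquaporins, potassium channels, ABC transporters, the organic anion carriers named Slco, sodium and calcium pumps and a few more, gave 146 genes on the array and 62 tested. For parity 2 of the 62 rose and none fell, with a median of 0.05, where 1.24% of all genes passed. For MNU none passed, with a median of 0.01, where 0.43% of all genes passed. The water channel Aqp2 had 10019 units on parous+MNU, against 6993 on AMV+MNU, and 12842 on parous, against 5694 on AMV, with a mean of 0.85 ± 0.14 (SE; adjusted p = 0.0102). The calcium-activated potassium channel Kcnn4 had 264 units on parous+MNU, against 178 on AMV+MNU, and 333 on parous, against 201 on AMV, with a mean of 0.65 ± 0.11 (SE; adjusted p = 0.0107). In Aqp2, as in Slc14a1, both parous arrays lay above both AMV arrays. The same order held for Kcnn4, but it exceeded the filter of 214.9 units on the parous and parous+MNU arrays only. It was thus kept through the groups where it was high, and its AMV+MNU value lay just above the floor of 176.9 units.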

How the data were processed

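Mammary RNA from 4 groups of rats was put on 1 array each, and the titles name the groups. The authors deposited intensity values on a linear scale to 3 significant digits, with blanks. Neither the platform nor the image processing nor what a blank means is given in the sources used here. No value of another sample was present. Gene symbols came from the platform annotation in the value table's probe list.

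Array medians differed by 1.33 times, so intensities were quantile normalized, using features measured on every array and interpolating for the others. Values under the pooled 40th percentile (176.9 units) were set to it before logs (log2) were taken. Features above the pooled 50th percentile (214.9 units) on 1 array or more were kept, and the brightest of them stood for its gene. This gave 6187 genes, of which 5587 had values on all 4 arrays. Blanks were not filled in. Single pairs gave log2 differences and no p-value. The additive model of parity and MNU was fitted with limma 3.58.1 in R 4.3.3 (lmFit and eBayes without a trend), with Benjamini-Hochberg adjustment over the 5587 genes at 0.05. It leaves 1 residual degree of freedom per gene and borrowed 11.3 prior degrees of freedom. The number of arrays limits the precision. A gene "passed", "rose" or "fell" only by this test. Differences between pairs of a factor could not be tested.

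Named genes were members past 2-fold or past the test, the 3 highest and 3 lowest means and the 3 brightest of each family, members with several kept features, and fixed transporters of mammary gland and adipose tissue. The members and lists were chosen with earlier results of these data known, and the genes shown in the bar plot after their values were seen. Alternatives covered scaling, floor, filter, the choice among a gene's features, the fold limit and limma's options, and subtraction of the 1st percentile as background was added after seeing the data. The procedure was tested on simulated data. Promoters were matched by symbol to RefSeq entries of GRCr8 for 186 of the 216 genes. Python 3.11.15 with matplotlib 3.10.9 drew the figures.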

Additional observations from a re-analysis of the deposited data

Results flagged for a closer look

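In these genes a difference had opposite signs in the pairs of arrays and was at least 1.2-fold in each. With 1 array per group the difference between pairs was not tested. For Slc34a3, a sodium-phosphate cotransporter, parity gave 0.54 on the log2 scale with MNU and -0.33 without, which differ by 0.87. The same 4 values gave, for MNU over untreated, 0.28 in parous and -0.59 in AMV glands, again 0.87 apart. For Slc39a4, a zinc importer, MNU over untreated gave 0.34 in parous and -0.31 in AMV glands, which differ by 0.65. Of its 4 values the lowest, 181 units on AMV+MNU, lay just above the floor of 176.9 units.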

How the results depend on the processing

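No paired analysis was possible because each group has 1 array. For parity, 1 member passed as reported, and 0 passed with intensities as deposited, with no filter and with features averaged per gene. With background subtracted 1 passed, but it was Slc43a1, and Slc14a1 had an adjusted p of 0.0566. Slc14a1 passed in 8 of 12 alternatives, with a mean from 0.38 to 0.71 and an adjusted p from 2.85e-04 to 0.756. For MNU, 1 member passed as reported, 2 with arrays centred on the median (Slc22a23 and Slc25a10) and 2 with quantiles over all values (Slc25a10 and Slc4a2), and 0 with no floor, no filter, the mean of features or each feature on its own. As deposited 1 passed, but it was Slc22a23. Slc25a10 passed in 7 of 12, with a mean from 0.42 to 0.85 and an adjusted p from 3.11e-04 to 0.289. At 2-fold 0 members stood out; with background subtracted 1 did in parous+MNU over AMV+MNU (Slc39a4). At 1.5-fold the members were 3 in parous+MNU over AMV+MNU and 2 in each MNU pair. The median of the other substrates in parous+MNU over parous was -0.30 as deposited, where all genes had -0.40, against 0.13. As deposited, the medians of all genes for parity and MNU were -0.22 and -0.24. Over all genes, calls ranged from 0 (no filter) to 148 for parity, with 69 as reported, and from 0 to 119 for MNU, with 24 as reported. Genes at 2-fold ranged up to 43 (27 as reported) for parous over AMV, from 15 to 67 (24) for parous+MNU over AMV+MNU, up to 57 (23) for AMV+MNU over AMV and from 2 to 44 (5) for parous+MNU over parous. Of 1132 alternative values of named members, 9 lost the call and 3 gained one, and 51 had the other sign, none of them past the threshold in either setting. The cause of these changes was not tested. Dim genes and blanks limit what the 88 members below the filter and the 9 with blanks can show.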
